A study of Mus musculus with 12 samples.

Results

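The 44 genes described here are the cytosolic aminoacyl-tRNA synthetases and a set of stress response genes that are often induced with them. The rule takes them by name and uses no measured value. The 20 synthetases were taken by their symbols, and the stress genes form 4 sets: 7 transcription factors and regulators, 7 enzymes of amino acid and folate metabolism, 3 amino acid transporter subunits, and 7 genes of folding and quality control in the endoplasmic reticulum (ER). Lars2, the mitochondrial leucyl enzyme, was left out. All 44 were found once in the day 9 table of 42802 features and once in the day 5 table of 43309 features. The cells were mouse neural progenitor cells of strain C57BL/6, which divide in culture and can form neurons and glia, grown in EGF and FGF-2, each at 10 ng/ml. The cKO cells were LaminB1fl/fl, so Cre can delete their lamin B1 gene, and the WT cells were LaminB1+/+. Both genotypes carried Ai3, a reporter that makes EYFP after Cre has acted, and both received the same lentivirus, pSox2-Cre, in which a Sox2 promoter drives Cre. EYFP+ cells were sorted 9 or 5 days after the virus and their polyA RNA was sequenced. The 12 libraries form 4 groups of 3: cKO and WT at day 9, and cKO and WT at day 5. The labels do not tie replicates to cultures or animals of their own. A p-value here therefore reflects the scatter among these libraries alone, which could be technical.

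Aminoacyl-tRNA synthetases join each amino acid to its tRNA before the ribosome uses it. When amino acids run short or unfolded protein builds up in the ER, kinases phosphorylate the initiation factor eIF2; general translation then falls while translation of the transcription factor ATF4 goes up. ATF4 and its C/EBP partners switch on synthetases, enzymes and transporters that supply serine, asparagine and cystine, and feedback genes such as Ddit3 and Trib3, while ATF6 and XBP1 switch on ER chaperones such as Hspa5.

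The stretches that follow are shown because they hold the best known sites of these 2 pathways ahead of genes whose day 9 values are given further on, and those genes did not move alike. RefSeq windows (build GRCm38.p6) were found for 35 of the 44 genes, and the 250 bases before each start were searched on both strands. The C/EBP-ATF response element, searched as TGATGNAA and as TTNCATCA for the other strand, was in 9 of the 35 windows (among them Asns, Atf3, Chac1, Gars, Herpud1, Nupr1, Slc7a11 and Tars) and in 3.45% of all 32851 windows. The ER stress response element, CCAAT and CCACG with 9 bases between them, was in 1 of the 35, that of Hspa5, and in 0.113% of all windows. The core of the unfolded protein response element, TGACGTGG, was in 0 of the 35 and in 0.563% of all windows. A match gives letters only and shows no binding. Capitals mark the match, and each sequence runs 5′ to 3′ along the gene's strand. The Slc7a11 and Chac1 stretches lie before the annotated gene, and the other 3 overlap exons of their gene in the GENCODE annotation and are kept to 30 bases.
Slc7a11, chr3:50443615-50443713, minus strand: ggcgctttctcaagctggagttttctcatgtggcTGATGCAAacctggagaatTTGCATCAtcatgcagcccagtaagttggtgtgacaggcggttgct
Chac1, chr2:119351022-119351101, plus strand: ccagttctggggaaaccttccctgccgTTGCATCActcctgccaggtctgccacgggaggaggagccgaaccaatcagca
Nupr1, chr7:126625562-126625591, minus strand: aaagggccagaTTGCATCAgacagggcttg
Asns, chr6:7693214-7693243, minus strand: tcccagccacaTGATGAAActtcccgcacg
Hspa5, chr2:34772019-34772048, plus strand: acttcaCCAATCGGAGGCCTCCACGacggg

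Library totals ran from 13315273 to 22988447 counts in cKO and from 24412935 to 24662809 in WT at day 9, and from 26720476 to 28540036 in cKO and from 29460342 to 32127629 in WT at day 5. At day 9, 12 structural RNA features, such as Gm42418 and Rn7sk, took 72.4%, 0.362% and 71.2% of the counts in cKO replicates 1, 2 and 3 and 15.9%, 34.9% and 17.9% in WT, so cKO replicates 1 and 3 had 3669683 and 3945295 counts elsewhere, against 22905317 in cKO replicate 2. Day 5 had 14.2% in cKO replicate 2 and at most 0.509% in the other libraries. Lmnb1, the targeted gene, was at 34.3, 32.8 and 39.4 CPM in cKO, against 156, 209.7 and 188 CPM in WT, at day 9. At day 5 it was at 37.8, 40.7 and 45.04 CPM in cKO, against 288, 255 and 247 CPM in WT. Each cKO library was thus below each WT library on both days, though a count over the whole gene cannot show what part Cre deleted. At day 9 the progenitor marker Sox2, whose promoter drives Cre, was at 249, 285 and 249 CPM in cKO, against 215, 255 and 274 CPM in WT, and overlapped. In cKO, 6 of 8 progenitor markers and 9 of 10 proliferation markers then fell, against 22.6% of all genes tested. Pax6 rose among the progenitor markers. Of the other cell types, 6 of 8 astrocyte markers and 5 of 7 tested neuron markers rose, against 21% of all genes tested. Of the oligodendrocyte markers 5 of 7 tested rose while Olig1 and Olig2 fell. Summed over each list, proliferation markers were at 106 to 122 CPM in cKO and 549 to 739 CPM in WT. Progenitor markers summed to 1432 to 1597 CPM in cKO and 2902 to 3329 CPM in WT. The astrocyte sum was 3087 to 3762 CPM in cKO and 1918 to 2246 CPM in WT, and the neuron sum 514 to 579 CPM in cKO and 127 to 289 CPM in WT. Oligodendrocyte markers overlapped in sum, at 1883 to 2330 CPM in cKO and 2289 to 2524 CPM in WT. Both tested endothelial and mural markers rose, and that list summed to 3.74 to 5.91 CPM in cKO and 2.41 to 2.66 CPM in WT. The microglia list summed to 0.226 to 0.935 CPM in cKO and 0.179 to 0.262 CPM in WT, and 0 of its 6 markers were tested. The microglia markers Aif1 and Tyrobp and the endothelial marker Cdh5 were at 0 in all 6 day 9 libraries. The part of these marker differences, and of structural RNA, in the results that follow was not tested. In bulk RNA fewer cells of a type and less RNA per cell cannot be told apart.

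The first comparison asks how these genes differed between cKO and WT cells at day 9. Of the 43 genes tested, 5 rose in cKO (Slc7a11, Eprs, Dars, Dnajb9 and Lars) and 14 fell, so 44.2% were called, against 43.6% of all 14617 genes tested. The share that rose was 11.6%, against 21% of all genes, and the share that fell was 32.6%, against 22.6%. A gene was called at an adjusted p under 0.05 in edgeR's quasi-likelihood test, with Benjamini-Hochberg adjustment over all genes tested. Trib3 was too low to be tested. The median log2 fold change was -0.14 for the 43 genes and 0.01 for all genes. All 3 cKO libraries lay above all 3 WT libraries for 6 of the 43 genes and below them for 16, or 51.2% in all, against 57.8% of all genes (27.6% above and 30.2% below). Beyond the called genes these were Iars above and Mthfd2 and Chac1 below. By DESeq2 17 of the 43 were called. On the deposited TPM scale the median of all genes was at -0.91, and that scale sums to 1 total that includes structural RNA. There limma called 0 of 41 genes, against 0.466% of all genes as higher and 2.15% as lower.

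Of the 20 synthetases 3 rose, 6 fell and 11 were not called at day 9, a count near the 43.6% called over all genes (21% higher and 22.6% lower), with a median log2 fold change of -0.14, while 0 were called on TPM as deposited. Eprs, which charges tRNA with glutamate and proline, Dars, the aspartyl enzyme, and Lars, the leucyl enzyme, rose, and the glutaminyl, lysyl, seryl, alanyl, methionyl and tryptophanyl enzymes Qars, Kars, Sars, Aars, Mars and Wars fell. Eprs, at chr1:185363044-185428360, had 88.7, 92.1 and 67.96 CPM in the cKO libraries, against 48.03, 34.3 and 19.9 CPM in the WT libraries. Every cKO library was above every WT library, and the WT libraries were themselves widely spread. Eprs had a log2 fold change of 1.28 ± 0.33 SE (edgeR adjusted p = 0.0246). Dars, at chr1:128363707-128417368, had 58.1, 84.9 and 56.4 CPM in the cKO libraries, against 35.8, 32.8 and 27.8 CPM in the WT libraries, with cKO replicate 2 the highest and no overlap. For Dars this gave a log2 fold change of 1.06 ± 0.18 SE (edgeR adjusted p = 0.00312). Lars was at 75.4, 86.3 and 74.4 CPM in the cKO libraries, against 46.5, 57.2 and 52.1 CPM in the WT libraries, again with no overlap. The Lars log2 fold change was 0.60 ± 0.11 SE (edgeR adjusted p = 0.00427). On TPM, relative to the shift of all genes, Eprs stood at 1.19, Dars at 0.89 and Lars at 0.48 on the log2 scale. As deposited Dars was at -0.017 and Lars at -0.43, so the direction of these 2 turned there. With TPM rescaled outside structural RNA, Dars was at 0.69 and Lars at 0.26, neither called.

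Among those that fell, the glutaminyl enzyme gene Qars, at chr9:108507706-108515941 of GRCm38, was the most even. It was at 32.7, 33.2 and 31.2 CPM in the cKO libraries, against 51.99, 49.2 and 51.4 CPM in the WT libraries, so each group's 3 libraries lay within a narrow band and the bands were far apart. Qars had a log2 fold change of -0.65 ± 0.10 SE (edgeR adjusted p = 0.00141). Kars was at 77.5, 92.7 and 81.8 CPM in the cKO libraries, against 113, 124 and 123 CPM in the WT libraries. Kars had a log2 fold change of -0.51 ± 0.10 SE (edgeR adjusted p = 0.00618). Its lysyl enzyme sits in the same multi-enzyme complex as those of Qars, Eprs, Dars and Lars, so within that complex's genes some rose and some fell. Sars was at 93.8, 112 and 92.7 CPM in the cKO libraries, against 151, 131 and 144 CPM in the WT libraries. For Sars this gave a log2 fold change of -0.52 ± 0.11 SE (edgeR adjusted p = 0.00909). Aars was at 122, 131 and 122 CPM in the cKO libraries, against 169, 162 and 164 CPM in the WT libraries. For Aars this gave a log2 fold change of -0.40 ± 0.09 SE (edgeR adjusted p = 0.0106). Mars and Wars fell by less, with log2 fold changes of -0.30 and -0.28 (edgeR adjusted p = 0.0299 and 0.037). The 11 not called ranged from -0.31 for Hars to 0.26 for Farsb, and of these Iars alone had its cKO libraries all above WT, at 80.6, 80.8 and 83.9 CPM in cKO, against 59.8, 76.2 and 72.6 CPM in WT (edgeR adjusted p = 0.118). Per transcript length, in TPM outside structural RNA, Sars had the highest group mean among synthetases in both genotypes, at 122 in cKO and 208 in WT, and the lowest was Cars at 21.5 in cKO and Eprs at 19.6 in WT.

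**Figure D1:**
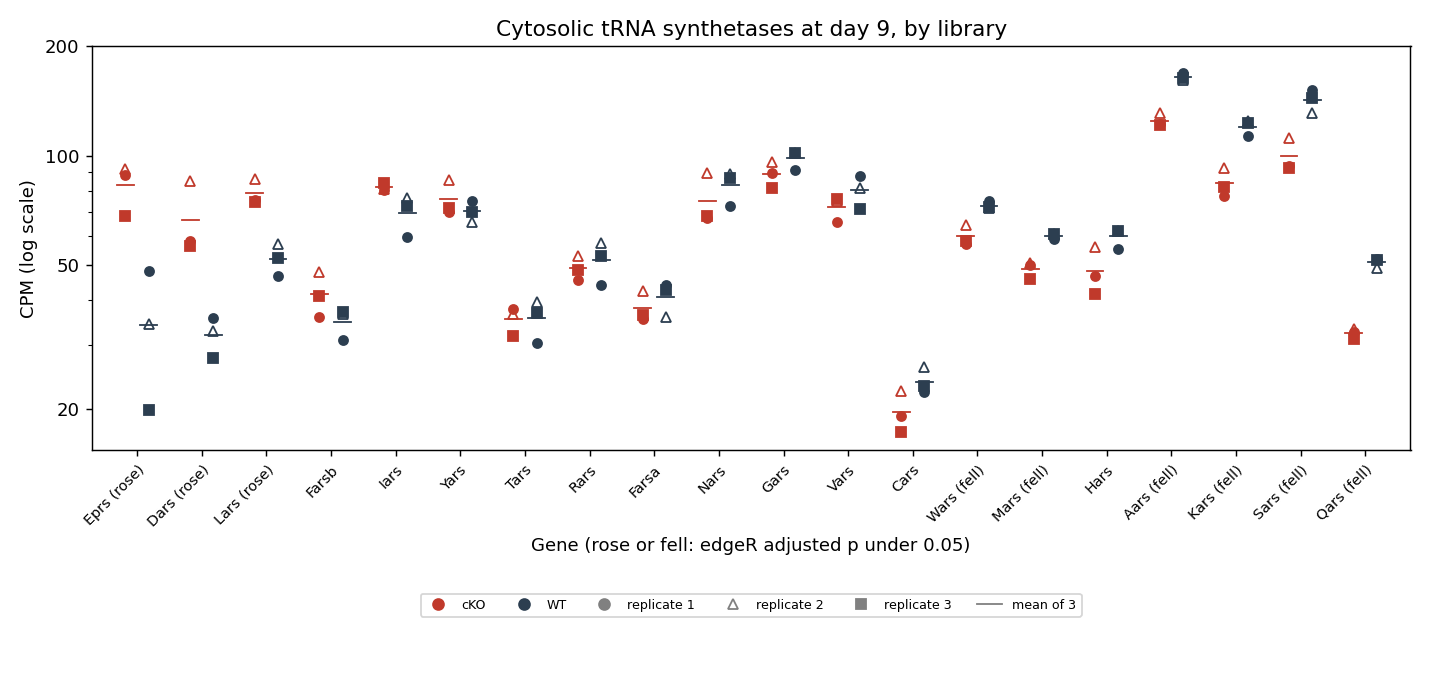
CPM on a log axis of each cytosolic synthetase gene in each day 9 library, with cKO in red left of WT in dark blue, a symbol for each replicate and a bar for the mean of 3; genes run from the highest to the lowest log2 fold change. Eprs, Dars and Lars lie higher in all cKO libraries, and Iars does so without a call. Wars, Mars, Aars, Kars, Sars and Qars lie lower in all cKO libraries, and the other genes overlap. On TPM as deposited Dars and Lars turn, at -0.017 and -0.43. On TPM rescaled outside structural RNA they are at 0.69 and 0.26.

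Among the synthetases, the call of Eprs ended without cKO replicate 1, without cKO replicate 2 or without WT replicate 2 (edgeR adjusted p from 0.0715 to 0.0831), and those of Mars and Wars ended without any 1 library except cKO replicate 2 (edgeR adjusted p from 0.0599 to 0.0938 for Mars and from 0.0848 to 0.13 for Wars). Without cKO replicate 2, Hars and Cars were also called as lower (log2 fold change -0.46 and -0.41, edgeR adjusted p = 0.0106 and 0.0424).

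The transcription factors and regulators had 3 falls and 0 rises among the 6 tested at day 9, with a median log2 fold change of -0.78. That median rests in part on the low genes Atf3, Cebpb and Nupr1. It was -0.24 over the 4 genes with a CPM of at least 1 in 3 libraries, and -0.38 over 5 with structural RNA removed. Over all genes 43.6% were called, 22.6% lower and 21% higher. Atf4, the central transcription factor of the pathway, was at 60.02, 67.7 and 60.4 CPM in the cKO libraries, against 77.7, 77.5 and 82.01 CPM in the WT libraries, a lower level in every cKO library. Atf4 had a log2 fold change of -0.33 ± 0.09 SE (edgeR adjusted p = 0.0218). Cebpb, a C/EBP factor that can pair with ATF4, was low throughout, at 0.468, 0.453 and 0.563 CPM in the cKO libraries, against 1.30, 1.11 and 1.25 CPM in the WT libraries. Its counts per library were 3 to 18 in cKO and 31 to 46 in WT. Cebpb had a log2 fold change of -1.33 ± 0.36 SE (edgeR adjusted p = 0.0193). Nupr1, a small stress-induced chromatin protein gene with the TTGCATCA match printed above, was at 0.156, 0.302 and 0.281 CPM in the cKO libraries, against 0.763, 0.825 and 0.727 CPM in the WT libraries, from 1 to 12 counts per library in cKO and 23 to 27 in WT. Nupr1 had a log2 fold change of -1.51 ± 0.45 SE (edgeR adjusted p = 0.0268). Ddit3, which encodes CHOP, a factor tied to cell death under lasting stress, overlapped between groups at 7.01, 8.68 and 6.33 CPM in the cKO libraries, against 7.29, 6.71 and 8.20 CPM in the WT libraries. Ddit3 had a log2 fold change of 0.01 ± 0.18 SE (edgeR adjusted p = 0.982). Trib3, a pseudokinase that feeds back on ATF4, had at most 6 counts in a cKO library and 9 to 14 in the WT libraries, or 0, 0.151 and 0 CPM in cKO, against 0.396, 0.323 and 0.349 CPM in WT, and was not tested. Atf3, a factor induced by many stresses, was at 0, 0.277 and 0.141 CPM in cKO, against 0.198, 0.896 and 0.320 CPM in WT, and Ddit4, an inhibitor of the growth kinase mTORC1, at 56.6, 79.9 and 71.6 CPM in cKO, against 84.2, 73.1 and 84.9 CPM in WT; neither was called (edgeR adjusted p = 0.257 and 0.232). The call of Atf4 ended without cKO replicate 1, cKO replicate 3, WT replicate 2 or WT replicate 3 (edgeR adjusted p from 0.0608 to 0.0867), that of Cebpb without cKO replicate 1 or any 1 WT library (edgeR adjusted p from 0.0546 to 0.0828), and that of Nupr1 without any 1 library except cKO replicate 2 (edgeR adjusted p from 0.0589 to 0.0974). DESeq2 did not call Cebpb or Nupr1.

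Of the 7 enzymes of amino acid and folate metabolism 3 fell and 0 rose at day 9 (median log2 fold change -0.42), against 22.6% of all genes lower and 21% higher. Phgdh, the first enzyme of serine synthesis, was at 162, 220.3 and 191 CPM in the cKO libraries, against 184, 144 and 164 CPM in the WT libraries. Thus cKO replicates 2 and 3 were above all WT libraries while cKO replicate 1 was below WT replicates 1 and 3. Phgdh had a log2 fold change of 0.22 ± 0.14 SE (edgeR adjusted p = 0.238). Psat1, the next enzyme, was at 187, 223 and 178 CPM in the cKO libraries, against 251, 272 and 263 CPM in the WT libraries, lower in every cKO library. For Psat1 this gave a log2 fold change of -0.42 ± 0.12 SE (edgeR adjusted p = 0.0219). Psph, the last step to serine, was at 21.5, 29.7 and 23.6 CPM in the cKO libraries, against 37.4, 32.5 and 36.8 CPM in the WT libraries. The Psph log2 fold change was -0.50 ± 0.15 SE (edgeR adjusted p = 0.0256). Shmt2, which passes a carbon of serine to folate in mitochondria, was lower without overlap as well, at 54.6, 58.1 and 53.8 CPM in the cKO libraries, against 81.8, 75.9 and 65.7 CPM in the WT libraries. The Shmt2 log2 fold change was -0.42 ± 0.11 SE (edgeR adjusted p = 0.015). Mthfd2, the next enzyme of mitochondrial folate metabolism, was at 7.79, 7.54 and 7.46 CPM in the cKO libraries, against 9.38, 12.7 and 8.40 CPM in the WT libraries, also without overlap but not called. The Mthfd2 log2 fold change was -0.42 ± 0.19 SE (edgeR adjusted p = 0.097). Asns, the asparagine synthetase and a standard readout of ATF4, was nearly level at 36.3, 43.8 and 36.4 CPM in the cKO libraries, against 36.8, 39.9 and 39.5 CPM in the WT libraries (log2 fold change 0.01 ± 0.12 SE, edgeR adjusted p = 0.965), although its window holds the TGATGAAA match printed above. Chac1, which breaks down glutathione, had 1 to 18 counts per library in cKO and 25 to 29 in WT, at 0.156, 0.453 and 0.281 CPM in cKO, against 0.819, 0.968 and 0.727 CPM in WT. Chac1 had a log2 fold change of -1.26 ± 0.47 SE (edgeR adjusted p = 0.0569). Calls ended for Psat1 without cKO replicate 1, cKO replicate 3, WT replicate 2 or WT replicate 3 (edgeR adjusted p from 0.0565 to 0.081), for Psph without any 1 library except cKO replicate 2 (edgeR adjusted p from 0.0528 to 0.0768), and for Shmt2 without cKO replicate 1, cKO replicate 3 or WT replicate 2 (edgeR adjusted p from 0.0598 to 0.0627). Chac1 was called without cKO replicate 2 (log2 fold change -1.91, edgeR adjusted p = 0.0272).

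Among the transporter subunits Slc7a11 rose at day 9, as did 21% of all genes, and the other 2 were not called (median log2 fold change 0.05 over the 3). Slc7a11, the cystine importer xCT at chr3:49892526-50443614, whose window holds 2 matches of the response element facing each other, had the highest fold change of the 43 genes. It was at 17.5, 8.27 and 21.4 CPM in the cKO libraries, against 3.70, 3.44 and 1.89 CPM in the WT libraries; the lowest cKO value, in replicate 2, was over the highest WT value, and cKO replicate 2 is also the cKO library with the least structural RNA. The means were 15.7 ± 6.73 CPM in cKO and 3.01 ± 0.979 CPM in WT (SD, n = 3 each), and the fitted difference was 5.12-fold. The Slc7a11 log2 fold change was 2.36 ± 0.43 SE (edgeR adjusted p = 0.00682). Set against WT, cKO replicate 2 alone gave a log2 fold change of 1.43 for Slc7a11, from 1 cKO library and so with no measure of cKO scatter. On TPM, relative to the shift of all genes, the value was 1.75. Slc7a5, the subunit of the LAT1 carrier that takes up leucine and other large amino acids, was at 87.3, 108 and 105 CPM in the cKO libraries, against 101, 106 and 84.4 CPM in the WT libraries. The Slc7a5 log2 fold change was 0.05 ± 0.13 SE (edgeR adjusted p = 0.778). Its partner Slc3a2, a chain shared by the LAT1 and xCT carriers, was at 85.6, 100.2 and 88.8 CPM in the cKO libraries, against 99.96, 102 and 98.2 CPM in the WT libraries. Slc3a2 had a log2 fold change of -0.13 ± 0.10 SE (edgeR adjusted p = 0.307). Both overlapped between genotypes.

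ER genes gave 1 rise and 2 falls among 7 at day 9, with a median log2 fold change of -0.06, against 21% of all genes higher and 22.6% lower. Pdia4, a disulfide isomerase of the ER at chr6:47796141-47813430, had the smallest adjusted p of the 43 genes. It was at 78.3, 82.1 and 74.9 CPM in the cKO libraries, against 118, 131 and 127 CPM in the WT libraries, every cKO library far below every WT library. Pdia4 had a log2 fold change of -0.68 ± 0.09 SE (edgeR adjusted p = 0.00104). Hyou1, an ER chaperone of the HSP70 family, was at 95.9, 81.4 and 81.9 CPM in the cKO libraries, against 113, 112 and 112 CPM in the WT libraries. Hyou1 had a log2 fold change of -0.38 ± 0.10 SE (edgeR adjusted p = 0.0167). Dnajb9, a co-chaperone of Hspa5, was at 11.8, 15.3 and 12.1 CPM in the cKO libraries, against 8.82, 9.54 and 7.59 CPM in the WT libraries, without overlap (log2 fold change 0.61 ± 0.16 SE, edgeR adjusted p = 0.0185). It turned direction with the GC trend of each library removed (log2 fold change -0.26, with all genes at -0.12) and on TPM as deposited (-0.37). Relative to the shift of all genes on TPM, Dnajb9 stood at 0.54. On TPM rescaled outside structural RNA it was at 0.25 and not called. Hspa5, the main ER chaperone BiP, with the ER stress element printed above, overlapped at 176, 217 and 149 CPM in the cKO libraries, against 179.9, 199 and 186 CPM in the WT libraries. Hspa5 had a log2 fold change of -0.06 ± 0.14 SE (edgeR adjusted p = 0.752). Xbp1, whose spliced form is a main factor of the unfolded protein response, was at 27.7, 31.8 and 27.6 CPM in the cKO libraries, against 29.4, 25.8 and 31.6 CPM in the WT libraries (log2 fold change 0.01 ± 0.13 SE, edgeR adjusted p = 0.962); gene counts do not separate its spliced form. Herpud1 and Sdf2l1, which act in ER quality control, were at -0.01 and -0.12 on the log2 fold change scale and were not called. The call of Hyou1 ended without cKO replicate 3 or WT replicate 2 (edgeR adjusted p from 0.0502 to 0.0679) and that of Dnajb9 without cKO replicate 2, WT replicate 1 or WT replicate 3 (edgeR adjusted p from 0.0533 to 0.0664).

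**Figure D2:**
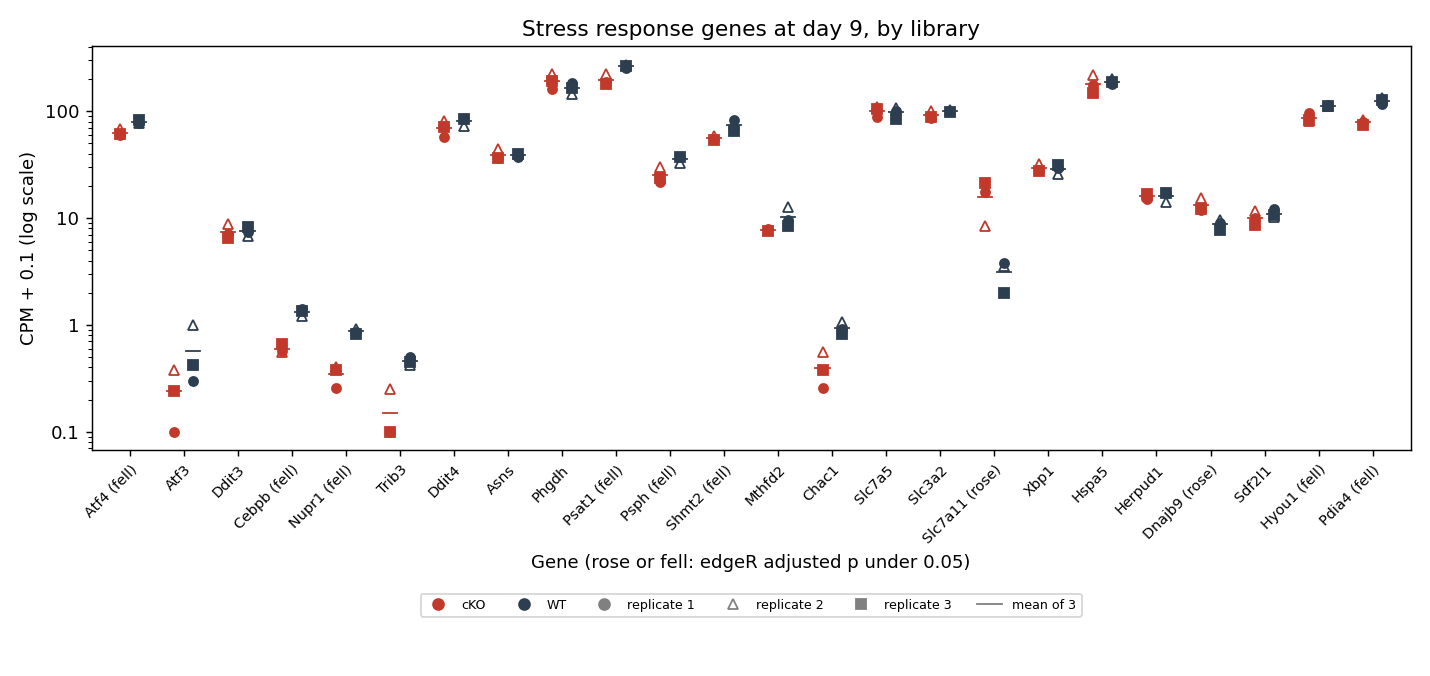
CPM plus 0.1 on a log axis of each stress response gene in each day 9 library, with cKO in red left of WT in dark blue, a symbol for each replicate and a bar for the mean of 3; genes run by set, from transcription factors through enzymes and transporters to ER genes. Slc7a11 is the widest gap upward in cKO, Cebpb, Nupr1, Trib3 and Chac1 lie low and lower in cKO, and Ddit3, Asns, Slc7a5, Xbp1 and Hspa5 overlap. Dnajb9 is higher in cKO here and turned direction with the GC trend removed (-0.26) and on TPM as deposited (-0.37). On TPM rescaled outside structural RNA Dnajb9 is at 0.25.

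Further known members of the same pathways were set beside these. The counts of these further lists stand against 43.6% of all 14617 genes called at day 9, 22.6% lower and 21% higher. Of 20 tested genes of the amino acid response 9 fell and 2 rose at day 9 (median log2 fold change -0.55). The neutral amino acid carrier gene Slc1a4 was at 60.02, 62.5 and 66.6 CPM in cKO, against 165, 166 and 163 CPM in WT (log2 fold change -1.39 ± 0.09 SE, edgeR adjusted p = 2.82e-05), and Pck2, the mitochondrial enzyme that makes phosphoenolpyruvate, was at 9.20, 10.4 and 10.3 CPM in cKO, against 30.6, 22.7 and 29.1 CPM in WT. The Pck2 log2 fold change was -1.46 ± 0.15 SE (edgeR adjusted p = 0.000241). Gdf15, a secreted stress hormone gene, was at 0.156, 0.126 and 0 CPM in cKO, against 3.50, 3.55 and 2.27 CPM in WT (edgeR adjusted p = 0.000327). Pycr1, a proline enzyme, was the clearer of the 2 that rose (log2 fold change 0.66 ± 0.16 SE, edgeR adjusted p = 0.0123); the other, Vldlr, overlapped between groups. Of 12 further folate enzymes 4 fell and 1 rose, with Mthfd1l at 7.64, 8.80 and 8.58 CPM in cKO, against 23.9, 31.5 and 25.9 CPM in WT (log2 fold change -1.69 ± 0.15 SE, edgeR adjusted p = 0.000109), Shmt1 at a log2 fold change of -1.32 and Aldh1l2, the riser, at 0.82 (edgeR adjusted p = 0.00169 and 0.00171). Any link between these folate falls and the fall of 9 of 10 proliferation markers noted above was not tested.

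Of 16 mitochondrial synthetases 6 fell and 1, Mars2, rose (median log2 fold change -0.34), against 22.6% of all genes lower and 21% higher. Mars2 was at 19.3, 19.8 and 19.98 CPM in cKO, against 12.9, 12.4 and 9.68 CPM in WT (log2 fold change 0.75 ± 0.14 SE, edgeR adjusted p = 0.00451), Aars2 at 10.1, 14.7 and 11.3 CPM in cKO, against 23.2, 20.8 and 20.3 CPM in WT (log2 fold change -0.81 ± 0.16 SE, edgeR adjusted p = 0.00542), and Sars2 at 6.70, 8.50 and 6.75 CPM in cKO, against 13.7, 12.9 and 11.6 CPM in WT. The Sars2 log2 fold change was -0.78 ± 0.16 SE (edgeR adjusted p = 0.00608). Of the 3 scaffold proteins that hold the cytosolic synthetase complex together 1 fell, Aimp1 (log2 fold change -0.43, edgeR adjusted p = 0.0468). Among 14 genes of eIF2, its kinases, its exchange factor eIF2B and its phosphatase, 3 subunits of eIF2B fell, with Eif2b2 at -0.77 and Eif2b4 at -0.49 on the log2 scale (edgeR adjusted p = 0.00356 and 0.013). The kinase gene Eif2ak2, which responds to double-stranded RNA, rose and was at 12.6, 6.74 and 16.3 CPM in cKO, against 4.75, 4.59 and 2.97 CPM in WT. For Eif2ak2 this gave a log2 fold change of 1.51 ± 0.35 SE (edgeR adjusted p = 0.0139). The ER stress kinase gene Eif2ak3 and the phosphatase subunit gene Ppp1r15a, an ATF4 target, were not called (log2 fold changes 0.10 and 0.04).

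Further ER genes gave 6 falls and 2 rises among 22 (median log2 fold change -0.18). This count and those of the next 2 lists stand against 22.6% of all genes lower and 21% higher. The isomerase genes Pdia6 (92.9, 106 and 88.2 CPM in cKO, against 154, 170.00 and 169 CPM in WT) and P4hb (238, 273 and 237 CPM in cKO, against 382, 359 and 382 CPM in WT) and the protease gene Mbtps1 (104, 96.0 and 93.9 CPM in cKO, against 149, 148 and 163 CPM in WT), which cuts ATF6, fell, while Atf6 rose (35.7, 36.2 and 31.8 CPM in cKO, against 22.4, 24.5 and 20.7 CPM in WT). The edgeR adjusted p of these 4 was 0.00108, 0.00394, 0.00166 and 0.00529. Cytosolic heat shock genes gave 4 falls and 1 rise among 12 tested (median log2 fold change 0.07), with Dnajb1 at -0.62, Hsp90ab1 at -0.48 and Hsph1, the riser, at 0.44 on the log2 scale (edgeR adjusted p = 0.00383, 0.0146 and 0.0091). All 6 NRF2 targets tested were called, 4 lower and 2 higher. NRF2 also drives Slc7a11 as a known target, so their values are given beside it. Nqo1 was at 0.468, 1.46 and 0.844 CPM in cKO, against 10.9, 9.72 and 13.1 CPM in WT (log2 fold change -3.38 ± 0.33 SE, edgeR adjusted p = 0.000171), while the glutathione synthesis genes Gclc and Gclm were at 0.60 and 0.72 on the log2 scale (edgeR adjusted p = 0.0131 and 0.0217).

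What the 5 genes that rose at day 9 share beyond their names is a low GC content of the longest coding transcript. It ran from 40.6% to 47.2% in the 5 (median 41.2%), from 47.6% to 67.2% in the 14 that fell (median 53.7%) and from 45.6% to 60.9% in the 24 not called (median 52.9%). Across all tested genes the same order held, with medians of 46.3%, 53.3% and 50.2% for genes that rose, fell or were not called. Spearman's rho of the log2 fold change with GC content was -0.46 over the 43 genes and -0.37 over the 12483 tested genes with a GC value, a description across genes that share the same 6 libraries. With the GC trend of each library taken out, an alternative added after the data were seen, 11 of the 43 genes were called (4 rose, 7 fell), against 45.2% of all genes, and 10 of them were also called without it. Slc7a11 (log2 fold change 1.51), Eprs (1.12), Lars (0.42), Qars (-0.57), Kars (-0.46), Sars (-0.41), Psat1 (-0.52), Cebpb (-1.17), Nupr1 (-1.34) and Pdia4 (-0.83) were the 10, and Phgdh was added (0.38, edgeR adjusted p = 0.0363). Dars was at 0.28 (edgeR adjusted p = 0.242), Aars at -0.24 (0.084), Atf4 at -0.20 (0.164) and Dnajb9 at -0.26 (0.305). The median of all genes in that fit was -0.12.

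**Figure D3:**
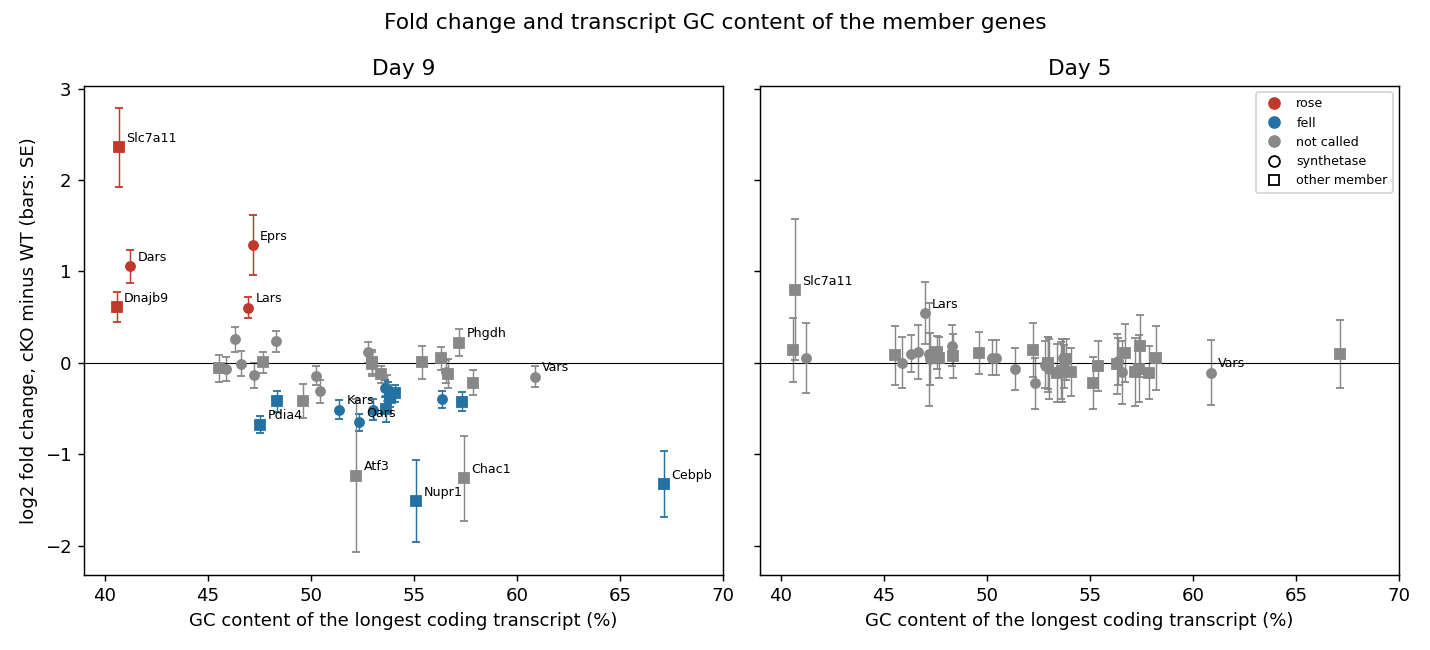
Log2 fold change (cKO minus WT, bars are SE) against the GC content in percent of the longest coding transcript, for the 43 genes tested at day 9 (left) and the 44 tested at day 5 (right); red rose, blue fell, grey not called, circles are synthetases. At day 9 the 5 that rose lie at 40.6% to 47.2% GC. Of these, Dars and Lars turn on TPM as deposited (-0.017 and -0.43), and Dnajb9 turns there (-0.37) and with the GC trend removed (-0.26). On TPM rescaled outside structural RNA Dars, Lars and Dnajb9 are at 0.69, 0.26 and 0.25. At day 5 all points lie between -0.22 and 0.80.

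Leaving out cKO replicates 1 and 3 together, the libraries with 72.4% and 71.2% structural RNA, left 8 of the day 9 calls, 4 higher and 4 lower, against 21.3% of all genes called in that fit, with cKO replicate 2 assumed to vary like WT. They were Slc7a11, Dars (log2 fold change 1.37), Lars (0.70), Dnajb9 (0.79), Pdia4 (-0.64), Qars (-0.65), Hyou1 (-0.50) and Cebpb (-1.46), all with the same direction as before. Among single libraries, the count of calls was lowest without WT replicate 2, at 9 (27.3% of all genes called), and highest without cKO replicate 2, at 21 (50% of all genes). It was 10 without cKO replicate 1 (27.1% of all genes), 11 without cKO replicate 3 (30.5%), 13 without WT replicate 1 (33.5%) and 11 without WT replicate 3 (31.3%), so the counts moved with those over all genes. Pdia4, Qars, Dars, Lars, Kars, Slc7a11, Sars and Aars were called whichever of the 6 libraries was left out.

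The same genes were then compared between cKO and WT at day 5. Of the 44 genes tested 0 were called by edgeR, against 0.00673% of all 14849 genes, and 0 had an unadjusted p under 0.05, against 89 of all genes; DESeq2 and limma-voom called 0 of the 44 as well. The log2 fold changes ran from -0.22 to 0.80 with a median of 0.04, against 0.01 for all genes. The groups separated for 0 of the 44 genes, against 2.85% of all genes (1.5% with cKO above and 1.35% below). On TPM limma called 0 of the 44, against 0% of all genes as higher and 0.00754% as lower. The smallest unadjusted p was that of Lars, at 0.155, followed by Slc7a11 at 0.336 and Iars at 0.432 (each with an edgeR adjusted p of 1). Lars was at 105, 184 and 133 CPM in the cKO libraries, against 137, 68.99 and 83.3 CPM in the WT libraries, and Iars at 155, 201 and 175 CPM in the cKO libraries, against 188, 133 and 145 CPM in the WT libraries. Both had high values in 1 WT library, so the groups overlapped.

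The spread between day 5 libraries of 1 genotype was wide, and it followed 2 libraries, cKO replicate 2 and WT replicate 1. Of the 44 genes, 10 had their 2 highest values in these libraries, against 33.5% of all genes, and 30 had their 2 lowest values there, against 36.6% of all genes. Eprs was at 102, 309 and 122 CPM in the cKO libraries, against 283, 107 and 109.9 CPM in the WT libraries, and Slc7a11 at 5.13, 31.97 and 6.00 CPM in the cKO libraries, against 13.2, 5.79 and 5.78 CPM in the WT libraries. In both, cKO replicate 2 and WT replicate 1 were the highest libraries of their genotypes. Hspa5 was at 228, 391 and 316 CPM in the cKO libraries, against 406, 213 and 264 CPM in the WT libraries, and Dars at 48.4, 97.3 and 66.97 CPM in the cKO libraries, against 98.8, 46.5 and 59.6 CPM in the WT libraries, with the same libraries high. Phgdh was at 788, 349.9 and 547 CPM in the cKO libraries, against 399.6, 727 and 684 CPM in the WT libraries. Atf4 was at 406, 233 and 362 CPM in the cKO libraries, against 317, 372 and 383 CPM in the WT libraries, and Slc7a5 at 785, 419 and 664 CPM in the cKO libraries, against 424, 768 and 691 CPM in the WT libraries. In these genes the same 2 libraries were the lowest of their genotypes.

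Day 5 values of some further genes named at day 9 follow. Ddit3 was at 19.7, 11.03 and 16.1 CPM in cKO, against 15.3, 16.05 and 16.6 CPM in WT. Trib3 was at 13.4, 7.02 and 8.67 CPM in cKO, against 6.41, 10.4 and 11.2 CPM in WT. Asns was at 233, 163 and 201 CPM in cKO, against 164, 195 and 215 CPM in WT, and Mthfd2 at 89.5, 64.4 and 92.9 CPM in cKO, against 71.4, 72.3 and 85.1 CPM in WT. In all 4, cKO replicate 2 was the lowest cKO library and WT replicate 1 the lowest WT library. Slc3a2 was at 548, 295 and 422 CPM in cKO, against 324, 542 and 502 CPM in WT, and Xbp1 at 64.6, 38.3 and 58.8 CPM in cKO, against 42.4, 57.6 and 62.1 CPM in WT. Among synthetases Qars was at 63.4, 42.5 and 56.8 CPM in cKO, against 45.9, 68.8 and 75.6 CPM in WT, and Kars at 302, 211 and 281 CPM in cKO, against 237, 283 and 311 CPM in WT. Here, too, those libraries were the lowest of their genotypes. Pdia4 was the more even, at 133, 139.7 and 146 CPM in cKO, against 125, 123 and 139 CPM in WT, and its groups overlapped. Spearman's rho with GC content over the 44 genes, taken on each library's deviation from the mean of its genotype, was -0.78 for cKO replicate 2 and -0.83 for WT replicate 1, and 0.74, 0.12, 0.82 and 0.72 for cKO replicates 1 and 3 and WT replicates 2 and 3. Over all tested genes with a GC value it was -0.73 and -0.77 for those 2 libraries. With the 2 libraries left out together, or with the GC trend removed, 0 of the 44 were called, against 0.129% and 0% of all genes.

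**Figure D4:**
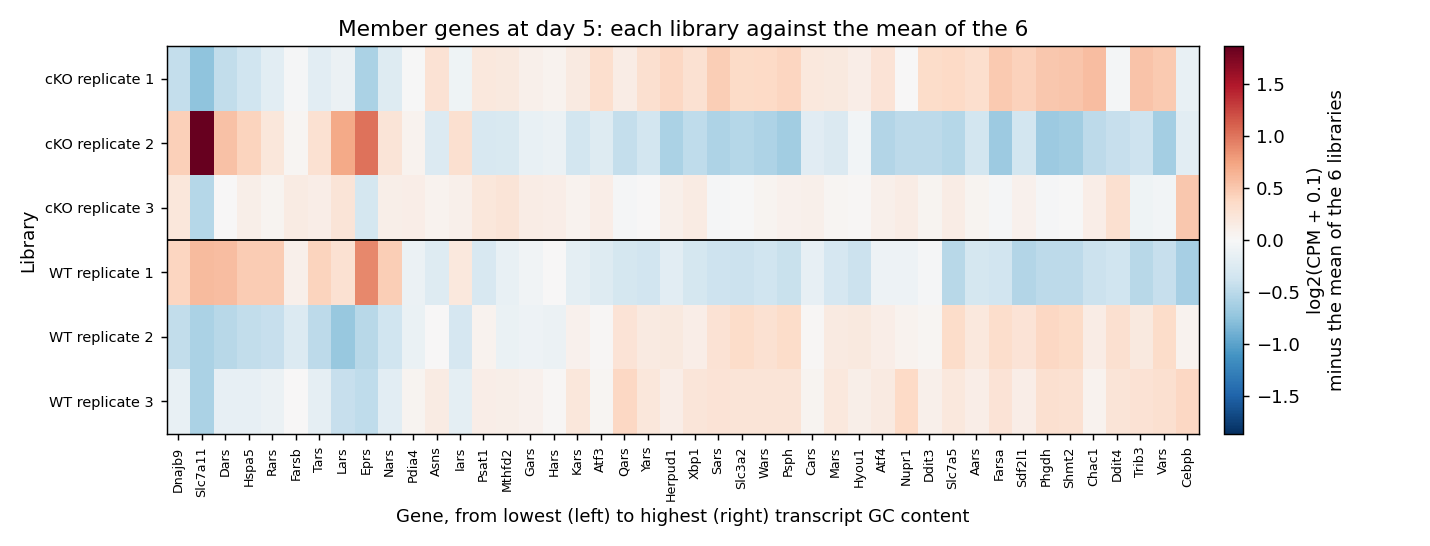
Heat map of the 44 genes (columns, from low to high transcript GC content) in the 6 day 5 libraries (rows, cKO above WT), coloured by log2(CPM + 0.1) minus the mean of the 6 libraries for that gene. The rows of cKO replicate 2 and WT replicate 1 are mostly red on the left and blue on the right, so the colour pattern divides the libraries across the genotypes rather than between them.

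The third comparison asks whether the cKO effect differed between day 9 and day 5. Of the 44 genes tested in the 12 libraries 1 was called, Pdia4, or 2.27%, against 7.71% of all 15323 genes (2.57% higher and 5.14% lower). Its cKO effect at day 9 minus that at day 5 was -0.79 ± 0.16 on the log2 scale (edgeR adjusted p = 0.0108), from -0.68 at day 9 and 0.12 at day 5. This call ended without cKO replicate 1, cKO replicate 3 or WT replicate 3 of day 9 (edgeR adjusted p from 0.0517 to 0.0533), without a filter on low counts (0.0756) and with the replicate number as a block (0.196). In limma on TPM it was not called either, as deposited (adjusted p = 0.692) or rescaled outside structural RNA (0.146). The next 5 by adjusted p did not pass: Nupr1 at -1.29 (0.0809), Cebpb at -1.41 (0.1), Chac1 at -1.42 (0.13), Trib3 at -1.86 (0.186) and Dars at 1.004 (0.27). At day 5 Nupr1 was at 5.80, 4.09 and 6.35 CPM in cKO, against 5.40, 6.01 and 7.50 CPM in WT. Cebpb was then at 3.11, 2.97 and 4.86 CPM in cKO, against 2.19, 3.57 and 4.51 CPM in WT, and Chac1 at 24.99, 11.9 and 18.1 CPM in cKO, against 12.6, 18.4 and 17.4 CPM in WT. All 3 overlapped between genotypes at day 5. Without cKO replicate 2 of day 5 the count of calls was 4 (Pdia4, Nupr1 and Chac1 as lower, and Slc7a11 as higher, at 2.94), against 15.5% of all genes. Without cKO replicate 2 of day 9 it was 2 (Pdia4 and Trib3), against 5.79% of all genes. In that fit Trib3 was at 0 CPM in both day 9 cKO libraries left, replicates 1 and 3. With the GC trend removed, Pdia4, Chac1, Nupr1 and Trib3 were called, 4 of 44, against 18.1% of all genes. The day 9 calls of the other 18 genes were thus not shown to differ from day 5. Each day has a table of its own, so no level is set against the other day.

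Some of these values are uncertain because reads may be shared. Strand use is not given in the sources used here, and Mars and Ddit3 on chromosome 10 overlap at their 3′ ends on opposite strands, so reads there cannot be told apart. Hars with Hars2, Cebpb with Tmem189, Shmt2 with Ndufa4l2, Psph with Cct6a and Wars with Wdr25 also overlap on opposite strands in the annotation. Kars and Phgdh have named pseudogene copies, Kars-ps1 and Phgdh-ps1, that can take reads.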

How the data were processed

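Polyadenylated RNA was measured in 12 libraries (cKO and WT, 3 each, at day 9 and at day 5). The authors deposited expected counts and TPM per gene, 1 table per day, per the file headers. The submitters' processing notes name RSEM, Bowtie2 (listed as 4.8.4) and mm10; no source used here gives the annotation, trimming or strand. A gene name was found for 97.75% of features at day 9 and 97.96% at day 5.

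Rounded expected counts were tested with edgeR 4.0.16 in R 4.3.3 (filterByExpr, TMM scaling, robust quasi-likelihood fit, Benjamini-Hochberg over all genes, threshold 0.05), with 6 libraries per day. The day difference was an interaction term over 12 libraries and 41592 symbols found once in both tables. SE was derived from the log2 fold change and the F statistic. The test was also run on simulated data. These held no structural RNA or GC difference between libraries, so that run cannot speak for the calls made here. Totals of 13315273 to 32127629 counts per library limit counting precision. They overstate the depth of day 9 cKO replicates 1 and 3, with 3669683 and 3945295 counts outside structural RNA. Alternatives were DESeq2 1.42.0, RLE scaling, no filter, a CPM of at least 1 in 3 libraries, limma 3.58.1 (voom, and log2(TPM + 1) for means of at least 1 TPM), structural RNA removed, a replicate block and libraries left out. TPM rescaled outside structural RNA, each library's GC trend removed (lowess, span 0.3) and 4 libraries left out for the day difference were added after the data were seen. No replicates were copies of each other by their counts (chi-square per degree of freedom at least 4.73). The lowest value was that of cKO replicates 1 and 3 at day 9, against 1576 and 1549 for each of them with cKO replicate 2. Such a value cannot tell whether replicates 1 and 3 came from 1 RNA sample or culture.

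Members and lists were chosen with earlier results of these data known. Named were 11 fixed genes (Atf4, Ddit3, Trib3, Asns, Phgdh, Mthfd2, Slc7a5, Slc3a2, Slc7a11, Xbp1, Hspa5), up to 4 called genes per set by adjusted p, called genes against their set's direction, the 3 smallest p at day 5, up to 6 for the day difference, up to 3 called per further list, and genes whose printed window holds a motif. Any other gene was named after its values were seen, to complete a count or a range.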

Additional observations from a re-analysis of the deposited data

Results flagged for a closer look

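Pdia4, the ER disulfide isomerase gene, stood out because its cKO effect differed between the days by a test of the difference itself: the effect at day 9 minus that at day 5 was -0.79 on the log2 scale (edgeR adjusted p = 0.0108). It was at 78.3, 82.1 and 74.9 CPM in cKO and 118, 131 and 127 CPM in WT at day 9, where all 3 cKO libraries were lower, and at 133, 139.7 and 146 CPM in cKO and 125, 123 and 139 CPM in WT at day 5, where the groups overlapped. The call was lost in 7 of 23 alternatives: without a low-count filter, in both limma fits on TPM, with the replicate block, and without cKO replicate 1, cKO replicate 3 or WT replicate 3 of day 9 (adjusted p from 0.0517 to 0.692). Among the 44 genes it was the 1 call, or 2.27%, against 7.71% of all genes.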

How the results depend on the processing

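At day 5 the count of called genes was 0 under all 17 alternatives run. At day 9 the 19 calls became 0 on TPM (2.62% of all genes called), 2 on TPM rescaled outside structural RNA (13.8%), 11 with the GC trend removed (45.2%) and 8 with cKO replicates 1 and 3 left out (21.3%), and ran from 9 to 21 over single libraries left out (27.1% to 50%); DESeq2, RLE, both filters, limma-voom and structural RNA removed gave 14 to 21. In the labels, same-numbered replicates share only a number. Their deviations correlated at -0.72, -0.5 and 0.53 at day 5 and at 0, -0.2 and -0.06 at day 9, and not every sample correlated best with its own number. Deviations from a mean of 3 libraries, which at day 5 also followed GC content, cannot show whether same-numbered libraries were prepared together. With the replicate number as a block the counts were 14 at day 9 (37.7% of all genes called), 0 at day 5 (0%) and 0 for the day difference (2.1%). The day difference, with 1 call, had 0 without a low-count filter (3.36% of all genes called), on TPM (1%) and on rescaled TPM (4.37%), 4 with the GC trend removed (18.1%), 2 with 4 libraries left out (11.2%), and 0 to 4 over single libraries left out (4.73% to 15.5%). Directions of called genes turned on TPM as deposited for Dars (-0.017), Dnajb9 (-0.37) and Lars (-0.43), where all genes shifted by -0.91. On TPM rescaled outside structural RNA they were at 0.69, 0.25 and 0.26, positive again but not called, with all genes at -0.29. Dnajb9 also turned with the GC trend removed (-0.26), where the median of all genes was -0.12. The cause was not tested. Genes not called changed sign in 59 of 402 gene and setting pairs at day 9, 134 of 748 at day 5 and 104 of 989 for the day difference. At most 29 counts per library limit Nupr1, Chac1, Trib3 and Atf3 at day 9. Low counts also limit Cebpb, with 3 to 18 per library in cKO and 31 to 46 in WT.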
